A study of Arabidopsis thaliana with 15 samples.

Results

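Arabidopsis thaliana seedlings left on filter paper for 3 h were set against seedlings left there for 1 h, to describe how gene expression moved on as water loss went on. The comparison uses 6 of the 15 libraries of the series, 3 at each time, and in the tables analysed here the 3 libraries of a condition stand in 1 combined column. All seedlings were wild type (ecotype Columbia, Col-0) and 14 d old, had spent their last day in liquid medium with sucrose, and gave whole-seedling polyadenylated RNA. Dehydrated seedlings were lifted out of that medium and kept in light of 40 µmol m-2 s-1. Beside the 2 dehydration times, the series holds seedlings harvested before treatment (untreated) and seedlings given 20 µM abscisic acid (ABA) in the medium for 1 h or 3 h, whose levels are given here for orientation. Of 22526 genes in the read table, 18877 had a mean of at least 1 CPM (read count per column size, with sizes adjusted by the trimmed-mean, or TMM, method) over the 5 columns and count as measured, and 18876 of these gave a ratio.

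A plant cell that loses water makes the hormone ABA. ABA binds receptors of the PYR/PYL family, which then hold the clade A protein phosphatases 2C (PP2Cs) inactive, so that SnRK2 kinases can switch on ABF transcription factors. ABF factors bind a promoter element called ABRE, and a second set of factors, the DREB proteins, binds an element called DRE without needing ABA. The target genes encode hydrophilic protective proteins, enzymes of compatible solutes, surface wax enzymes and further regulators.

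No difference below has a replicate check, because each time is 1 combined column, and no test was run. Differences are described by their size, with 2-fold as the limit, and bracketed ranges are exact 95% counting intervals of the log2 ratio, which cover counting error only. The libraries of one condition shared a sequencing well per the labels' protocols, and 3 h seedlings were harvested later than 1 h seedlings, so hours of drying, time of harvest and well cannot be told apart. In whole seedlings, fewer cells of a type and less RNA per cell cannot be told apart either. The totals were 178067955 reads at 1 h and 179714644 at 3 h.

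Genes were higher at 3 h far more often than lower. At least 2-fold higher at 3 h were 1023 genes (5.42% of those measured), and at least 2-fold lower were 259 genes (1.37%), or 6.79% in either direction. With totals as the only scaling the counts were 854 and 420, so that higher genes made up 67.0% of the calls in place of 79.8%. That scaling moved the median of all genes by −0.11 on the log2 scale, from −0.00, and ratios below are relative to the median under TMM scaling. At least 4-fold higher were 263 genes against 15 at least 4-fold lower, and at least 10-fold higher were 47 genes against 0. Most genes hardly moved, with 14224 genes (75.4%) between −0.5 and 0.5. The genes called higher went together from 30897 CPM at 1 h to 101185 CPM at 3 h, and those called lower from 13256 to 5367 CPM.

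**Figure D1:**
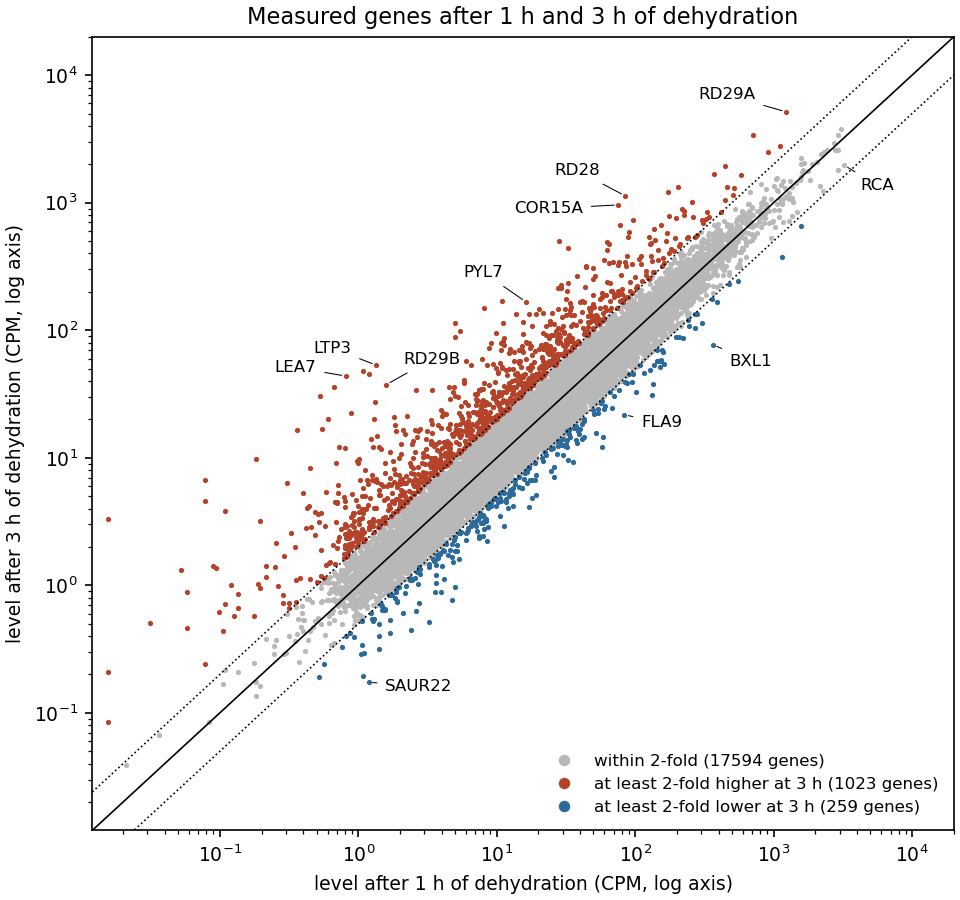
Level of each of 18876 measured genes after 1 h (horizontal axis) and 3 h (vertical axis) of dehydration, in CPM on log axes; the solid line marks equal levels and dotted lines 2-fold differences. The 1023 higher genes lie over a wide range of levels and reach RD29A at 5156 CPM, while the 259 lower genes stay closer to the line.

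Hormone synthesis came first in the pathway and was led by 1 gene. NCED3, which cleaves carotenoids in the limiting step of ABA synthesis, stood at 2.6 CPM untreated, 49.4 CPM after 1 h and 190 CPM after 3 h, a log2 ratio of 1.94 between the times (1.91 to 1.97). It was the only one of 6 measured ABA synthesis genes past 2-fold. AAO3, the oxidase of the last synthesis step, stood at 68.3 CPM and 65.4 CPM. Of 8 genes of ABA breakdown and conjugation none was 2-fold apart, where 6.79% of all measured genes were. The hydroxylase gene CYP707A3 had 25.5 CPM at 1 h and 30.4 CPM at 3 h, and CYP707A1 24.0 CPM and 28.1 CPM. In ABA-treated seedlings CYP707A1 had 51.4 CPM at 1 h and 197 CPM at 3 h.

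The ABA receptor genes split. Of 8 measured receptors 2 were at least 2-fold higher, 1 was lower, and 5 lay within 2-fold, around a median of 0.20. PYL7 was at 16.3 CPM both in untreated seedlings and after 1 h, and at 167 CPM after 3 h, 10.3-fold higher (log2 3.36, 3.3 to 3.41). PYL9 went from 9.74 to 39.4 CPM (log2 2.02). PYL4 went the other way, from 232 CPM untreated to 52.3 CPM at 1 h and 15.7 CPM at 3 h (log2 −1.74 between the times). Low levels after 1 h were common in this family: PYL5, at 151 CPM untreated, had 14.8 CPM at 1 h and 19.8 CPM at 3 h, and PYL6, at 21.6 CPM untreated, had 3.48 and then 2.1 CPM. With ABA in the medium PYL7 stood at 17.2 CPM after 1 h and 13.9 CPM after 3 h, near its untreated level, and PYL9 at 7.62 and 5.49 CPM.

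The clade A PP2Cs, which the receptors inhibit, were higher as a group. All 8 measured members had ratios above 0, 6 of them past 2-fold, with a median of 1.85. HAI3, one of the 6, passed the filter on low levels through the ABA columns (6.86 and 41.5 CPM) and had 0.110 CPM at 1 h and 0.713 CPM at 3 h. HAI2 had 0.261 CPM untreated, 4.83 CPM at 1 h and 33.1 CPM at 3 h (log2 2.78, 2.68 to 2.88). ABI1 had 68.6, 139 and 510 CPM in the same order, and PP2CA 21.4, 95.1 and 333 CPM. The 2 that stayed under 2-fold were HAB1, with 107 CPM at 1 h and 146 CPM at 3 h, and HAB2, with 44.1 and 84.6 CPM. Their course differed from that of the receptors in that every PP2C was already above its untreated level at 1 h. Under ABA, ABI1 had 549 CPM at 1 h and 626 CPM at 3 h, and HAI2 had 27.7 and 95.9 CPM. Between the ABA times 3 of the 8 genes were at least 2-fold higher, and the median log2 ratio of the 8 was 0.84.

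**Figure D2:**
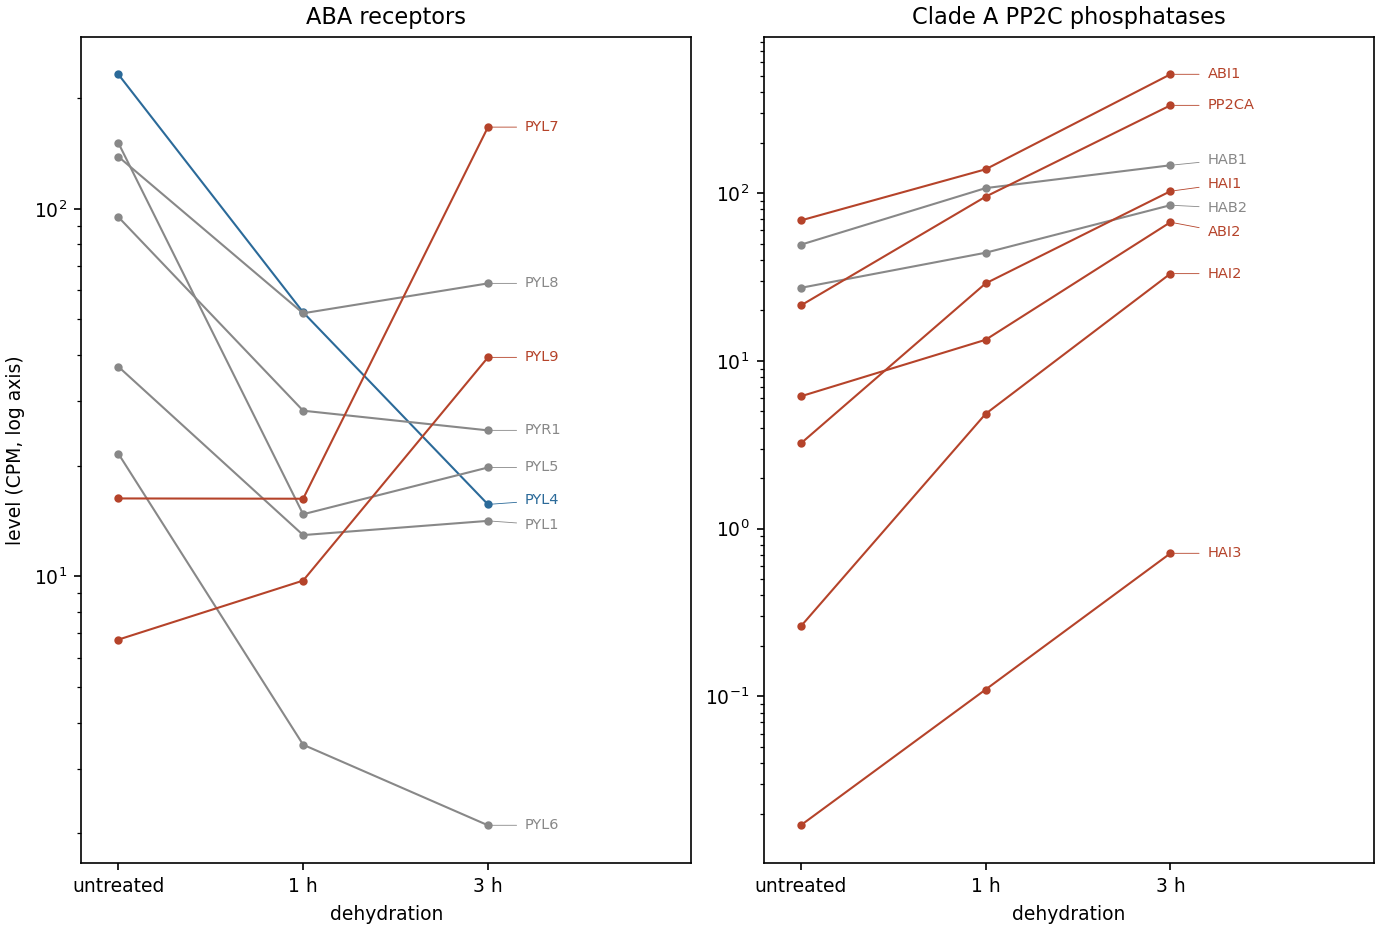
Levels in CPM (log axis) of 8 ABA receptor genes (left) and 8 clade A PP2C genes (right) in untreated seedlings and after 1 h and 3 h of dehydration; each line is 1 gene, red at least 2-fold higher and blue at least 2-fold lower at 3 h than at 1 h, grey in between. PYL7 goes from 16.3 to 167 CPM and PYL4 from 52.3 to 15.7 CPM, and the PP2C lines all point upward.

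Kinases and factors further down moved selectively. Of 14 SnRK2 kinases and ABF factors 4 were past 2-fold, all upward. The highest ratio of the list, log2 1.73, was that of a member not named here. The ABA-activated kinases of this family were nearly level: OST1 had 20.7 and 26.0 CPM, SNRK2.2 117 and 148 CPM, SNRK2.3 21.5 and 28.7 CPM. Among the factors ABF2 went from 35.6 to 113 CPM (log2 1.66), ABF3 from 74.7 to 191 CPM (1.35) and ABI5, the factor best known from germination, from 4.34 to 13.4 CPM (1.63). ABF4 had 33.9 and 42.2 CPM. Of 8 genes for AFP proteins, which repress ABI5, and for ABA-linked MAP kinases, 4 were higher. MAPKKK18, a kinase induced by ABA, had 0.279 CPM untreated, 3.39 CPM at 1 h and 34.1 CPM at 3 h (log2 3.33), and AFP1 had 5.37, 27.4 and 83.4 CPM.

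Late embryogenesis abundant (LEA) proteins and dehydrins, hydrophilic proteins that protect membranes and enzymes in drying cells, formed the group with the greatest upward median among the lists described. Of 22 measured members 21 were at least 2-fold higher and none lower, with a median of 2.82. The list holds well-known stress genes and was drawn up with earlier results known. Of 25 measured genes that carry a LEA annotation, a list partly of the same genes, 13 were higher and 1 lower, with a median of 1.33. The lower one, AT2G41990, had 7.65 CPM at 1 h and 3.06 CPM at 3 h. The 22 genes of the first list had a median of 2.72 between the ABA times. Together they had 1305 CPM untreated, 5090 CPM at 1 h and 17080 CPM at 3 h. RD29A carried the most reads of any gene called higher, with 18.3, 1229 and 5156 CPM (log2 2.07, 2.06 to 2.08). Its tandem neighbour RD29B had 0.364 CPM untreated and 1.60 CPM at 1 h, and reached 37.5 CPM at 3 h (log2 4.55, 4.39 to 4.73). With ABA RD29B had 16.0 CPM at 1 h and 714 CPM at 3 h. RAB18, a dehydrin known as an ABA marker, followed RD29B rather than RD29A, with 3.76, 2.63 and 34.2 CPM (log2 3.70).

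Within the group 2 courses could be seen. Genes such as ERD10 (103, 1107 and 2781 CPM) and COR47 (197, 916 and 2513 CPM), both dehydrins, were high at 1 h and a further 2.51-fold and 2.74-fold higher at 3 h. COR15A, whose protein acts in the chloroplast stroma, had 1.51, 75.6 and 961 CPM, and COR15B beside it 0.267, 32.8 and 443 CPM. LEA7 stayed low at 1 h and had the highest ratio of the list, with 0.261 CPM untreated, 0.811 CPM at 1 h and 43.7 CPM at 3 h (log2 5.75, 5.52 to 5.99). LEA4-5 had 0.648, 5.03 and 88.2 CPM. The member under 2-fold was SAG21, a mitochondrial LEA protein, with 571, 489 and 665 CPM. COR15A and COR15B, and KIN1 and KIN2, are close copies whose reads may have been split by the counting. EM1, EM6 and LEA18 averaged under 1 CPM over the dehydration columns and passed the filter through the ABA columns; with the filter set on the dehydration columns 18 members were higher and the median was 2.18. EM6, a LEA protein of ripe seeds, had 0.0576 CPM at 1 h and 0.466 CPM at 3 h.

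Start regions of some of these genes hold the elements named above. The stretches shown are 30 bases each, read from the gene's strand in TAIR10.1 (RefSeq), with the ABRE (ACGTGTC or ACGTGGC) or DRE (ACCGAC or GCCGAC), or its reverse complement, in capitals. They are given as examples for RD29A, RD29B, RAB18 and LEA7, and for the receptor PYL7. RD29A has further DRE matches and RD29B and LEA7 further ABRE matches in the same windows. The submitters' processing notes name TAIR10, and the files give no coordinates, so those below are from TAIR10.1. The RD29A stretches lie at chr5:21240564-21240593 and chr5:21240671-21240700 and the RD29B stretches at chr5:21236872-21236901, chr5:21236972-21237001 and chr5:21237000-21237029, all on the plus strand. RAB18 is on the minus strand at chr5:26519540-26519569, LEA7 on the plus strand at chr1:19619534-19619563 and chr1:19619686-19619715, and PYL7 on the plus strand at chr4:446955-446984 and chr4:446979-447008.
RD29A, DRE at −141: caatagacatggACCGACtactaataatag
RD29A, DRE at −34: aaaagatatactACCGACatgagttccaaa
RD29B, DRE at −137: caataaacgtggACCGACtaaaactaaata
RD29B, ABRE at −38: aactggctgagACGTGGCaggacgaaacgg
RD29B, ABRE at −10: ggacgcatcgtACGTGTCagaatcctacag
RAB18, ABRE at −111: ggaggagcattACGTGTCctgttagctacg
LEA7, ABRE at −179: tttttaccatgACGTGTCacatagatatag
LEA7, DRE at −26: tcttgttctctcGCCGACcaagacttgcta
PYL7, ABRE at −12: agttaaactaaGACACGTaatctatcttaa
PYL7, DRE at 13: tcttaaagatttGTCGGTtcatcgtaaatc
Positions give the first capital base relative to the annotated gene start. A match is a description of letters, not a shown binding site.

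Motif content was then read against the ratio over all genes, in windows from 250 bases before to 50 bases after the start, on both strands. An ABRE stood in 9.14% of 18825 windows, in 18.6% of those of genes at least 2-fold higher, in 26.0% of those at least 4-fold higher and in 5.41% of those at least 2-fold lower. For the DRE the same shares were 9.90%, 18.9%, 23.7% and 5.79%. The G-box (CACGTG), which overlapped an ABRE in 51.5% of the windows that held it, ran from 9.02% of all windows to 25.2% at 4-fold. The evening element (AAAATATCT), a clock-related element, stood in 3.04% of all windows and in 8.40% at 4-fold. The telo-box (AAACCCTA), known from genes of the translation machinery, stood in 5.46% of all windows and was rarer at both ends. Its share was 2.29% at 4-fold higher and 2.32% at 2-fold lower. For ABRE and DRE the share was also graded among genes under 2-fold, with an ABRE in 6.68% of windows for ratios from −0.5 to −0.25 and in 12.96% for ratios from 0.5 to 1. Of the 22 LEA and dehydrin windows 10 held an ABRE and 10 a DRE. Both the higher sets and the LEA windows include genes that passed the filter through the ABA columns, such as HAI3 and EM6. The shares were not recomputed with the filter set on the dehydration columns. These shares describe letters, and the part of any factor was not tested.

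**Figure D3:**
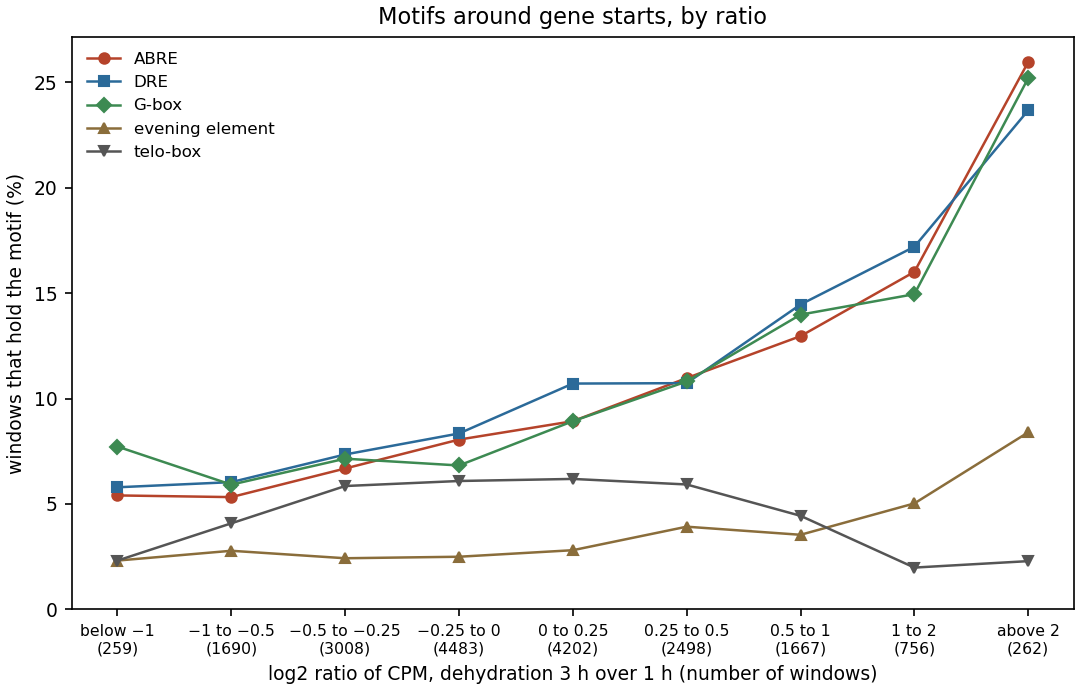
Share of start windows (250 bases before to 50 after the gene start) that hold each of 5 motifs, in percent, for genes grouped by the log2 ratio of 3 h over 1 h; numbers in brackets are windows. ABRE, DRE and G-box shares climb to between 23.7% and 26.0% in the group above 2, and the telo-box share is between 1.98% and 2.32% in the groups above 1 and below −1.

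Several of the classic drought genes, named for their response to desiccation, went with the LEA group, and others did not. Of 14 measured, 6 were higher and none lower. RD20, a calcium-binding oil body protein, had 6.99, 77.1 and 666 CPM (log2 3.11 between the times), and RD22, a BURP domain protein, 136, 219 and 900 CPM. Genes described as early-responsive did not go together. ERD9, a glutathione transferase whose gene overlaps another on the same strand, had 50.4, 75.6 and 323 CPM. The ratios of ERD4, ERD7 and ERD15 lay near 0, and ERD7 had 34.9 CPM untreated, 570 CPM at 1 h and 649 CPM at 3 h. ERD6, a sugar transporter, had 283, 408 and 226 CPM.

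Genes of compatible solutes followed. Of 14 genes of proline and raffinose metabolism 6 were higher and none lower. P5CS1, the main stress-linked enzyme of proline synthesis, had 28.1 CPM untreated, 65.2 CPM at 1 h and 477 CPM at 3 h (log2 2.87, 2.84 to 2.9). ERD5, the proline dehydrogenase that starts proline breakdown, had 168 and 107 CPM (log2 −0.65). In the raffinose branch GOLS2, a galactinol synthase, had 0.847, 11.2 and 115 CPM (log2 3.36), and the raffinose synthase RS5 26.5, 147 and 429 CPM (1.54). GOLS3 had 22.2 and 77.7 CPM in drying seedlings, and with ABA 5.70 CPM at 1 h and 1.01 CPM at 3 h.

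Starch breakdown genes leaned the same way, with all 17 measured members above 0, 5 of them past 2-fold, and a median of 0.49. BAM5, a cytosolic beta-amylase, had 3.15, 32.3 and 205 CPM (log2 2.67), BAM1 (AT3G23920), a plastid beta-amylase, 74.3, 153 and 667 CPM (4.36-fold higher), and SEX1, the dikinase that phosphorylates starch, 82.1, 170 and 584 CPM (1.78). BAM3 (AT4G17090), the beta-amylase of night-time breakdown, was level at 533 and 578 CPM after a low of 82.1 CPM untreated. Of 18 sucrose synthases and sugar transporters 5 were higher, among them the exporter SWEET4 (1.8 to 20.8 CPM) and the hexose importer STP13 (175 to 401 CPM). SAG29, another exporter, had 2.5 and 13.6 CPM in drying seedlings and 9.89 and 682 CPM with ABA. Of 27 dark-inducible and sugar-repressed genes 4 were higher and 2 lower. The lower ones were ASN1, an asparagine synthetase (272 to 105 CPM), and DIN10 (551 to 241 CPM). KMD4, an F-box protein, was at 293 CPM untreated, 32.6 CPM at 1 h and 237 CPM at 3 h.

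Aquaporins, the water channels of the plasma membrane (PIP) and vacuole (TIP), were mostly higher at 3 h. Of 19 measured genes 11 were at least 2-fold higher and none lower, with a median of 1.51. Their summed level was 10699 CPM untreated, 6493 CPM at 1 h and 15978 CPM at 3 h, so the total lay below the untreated level at 1 h and above it at 3 h. RD28, a PIP2 channel first found as a drought gene, had 98.5 CPM untreated, 84.7 CPM at 1 h and 1131 CPM at 3 h (log2 3.74, 3.72 to 3.76). PIP2B, its tandem neighbour and a close copy with which reads may be shared, had 267, 173 and 1222 CPM (log2 2.82). PIP2A had 1331, 709 and 3372 CPM (2.25), the second greatest gain in CPM of all genes after RD29A. In the vacuolar group GAMMA-TIP had 621, 369 and 1666 CPM (2.17) and TIP2;2 116, 88.3 and 539 CPM (2.61).

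Not every channel took part. TIP2 had 1577 and 1592 CPM, DELTA-TIP 1126 and 1022 CPM, PIP3 465 and 411 CPM, and PIP1;5 had the lowest ratio of the family (109 to 72.4 CPM, log2 −0.59). TIP2 and DELTA-TIP had also stood at 2319 and 2039 CPM untreated, so that neither was back at that level. In ABA-treated seedlings the 19 genes had a median of 0.01 between the times, with none higher and 1 lower. RD28 had 94.9 CPM after 1 h of ABA and 52.8 CPM after 3 h, and PIP2A 1167 and 1347 CPM. The window of 1 of the 19 genes held an ABRE and those of 2 a DRE, against 9.14% and 9.90% of all windows. With 19 windows these counts do not set the family apart from all genes.

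**Figure D4:**
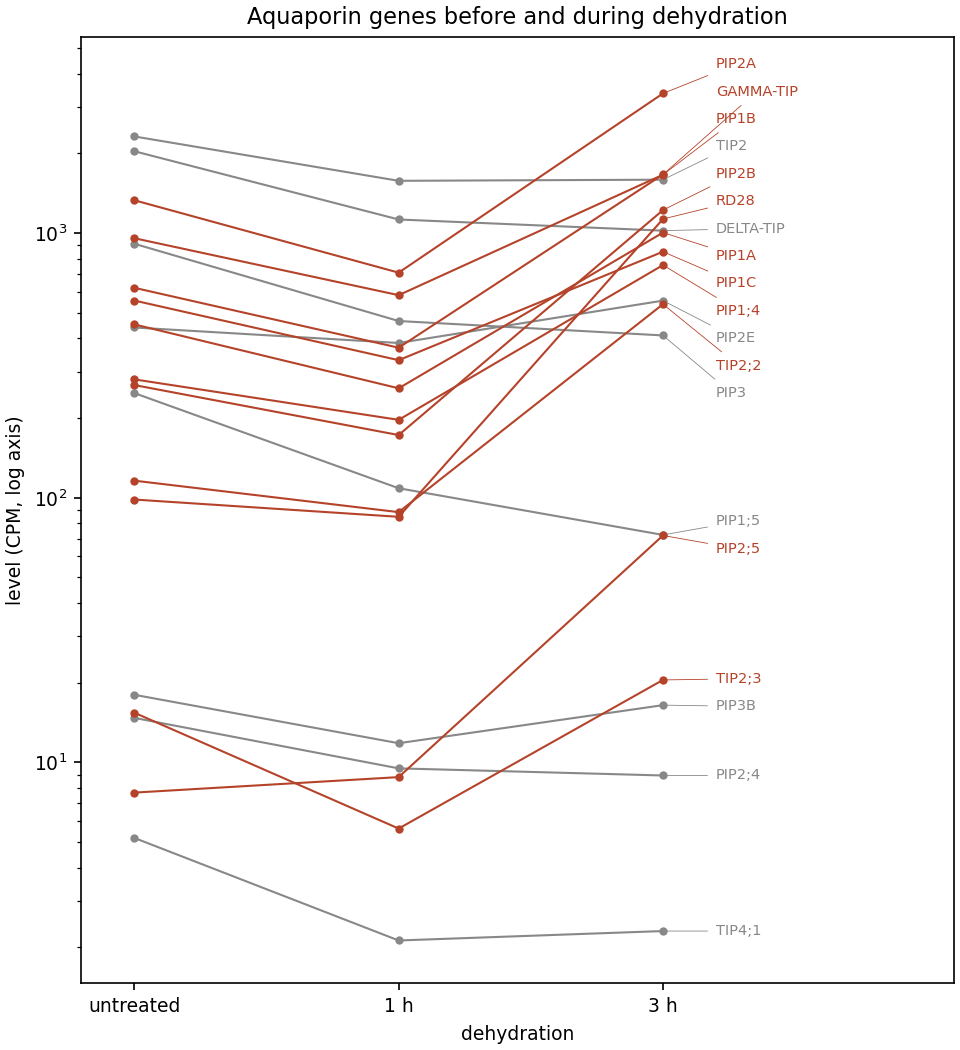
Levels in CPM (log axis) of 19 aquaporin genes in untreated seedlings and after 1 h and 3 h of dehydration; each line is 1 gene, red at least 2-fold higher at 3 h than at 1 h, grey within 2-fold. The 11 red lines turn upward between 1 h and 3 h, RD28 from 84.7 to 1131 CPM.

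Of 18 measured wax and suberin genes 9 were higher and none lower, with a median of 0.93. CER1, which makes wax alkanes, had 39.4, 29.2 and 216 CPM (log2 2.89), its partner CER3 122, 79.5 and 271 CPM (1.77), and WSD1, a wax ester synthase, 0.870, 3.38 and 18.5 CPM (2.45). The suberin genes named here were nearly level: GPAT5, an acyltransferase of suberin, had 0.989 and 1.02 CPM, and CYP86A1, a fatty acid hydroxylase, 3.67 and 3.75 CPM. Of 7 lipid transfer proteins, small secreted lipid carriers, 4 were higher. In the wider annotated family of lipid transfer and protease inhibitor proteins 10 of 63 were higher and 5 lower, with a median of 0.32, and AT2G10940 had 1157 and 374 CPM. LTP3 had 1.32 CPM untreated, 1.34 CPM at 1 h and 53.3 CPM at 3 h (log2 5.31), and LTP4, its neighbour and close copy, 0.267, 0.183 and 9.74 CPM (5.73). LTP1 had 462 and 1337 CPM.

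Among regulators, stress NAC factors had a median of 1.16, with 7 of 14 higher and none lower. RD26 had 38.2, 62.5 and 427 CPM (log2 2.77), ANAC019 4.55, 34.1 and 165 CPM (2.27) and ATAF1 58.3, 166 and 503 CPM (1.60). In ABA-treated seedlings ATAF1 had 127 CPM at 1 h and 79.2 CPM at 3 h. Of 15 MYB and MYC factors 8 were higher, led by MYB102 (2.11 to 16.6 CPM) and MYB74 (15.6 to 115 CPM), and MYB96, a regulator of wax genes, had 31.4, 119 and 273 CPM. Of 8 HD-Zip class I factors 3 were higher, HB-7 with 17.3, 25.2 and 138 CPM and HB-12 with 11.5, 34.3 and 152 CPM among them. The other called factor, HB21 (AT2G18550), had 0.0942 CPM at 1 h and 1.36 CPM at 3 h and passed the filter through the ABA columns.

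DREB factors differed among themselves. CBF1, CBF2 and CBF3, the cold-linked DREB1 factors, had been nearly silent in untreated seedlings (0.0568, 1.31 and 0.0398 CPM) and hardly differed between the times: CBF3 had 19.8 CPM at 1 h and 27.2 CPM at 3 h, and CBF2 25.4 and 21.9 CPM. These 3 genes stand in tandem and are close copies. DREB2A, the drought and heat branch, had 2.68, 34.6 and 132 CPM (log2 1.94), and CBF4, a DREB1 factor, had 0.696 and 3.15 CPM (2.18). In all 5 of 14 members were higher and none lower. Of 20 ERF factors 8 were higher, with AT4G28140, annotated as a DNA-binding protein of this superfamily, at 0.296 CPM untreated, 28.2 CPM at 1 h and 501 CPM at 3 h (log2 4.15, 4.11 to 4.19). With ABA it had 1.99 CPM at 1 h and 1.61 CPM at 3 h. ERF53 had 0.557, 44.3 and 320 CPM (2.85), and with ABA 7.61 and then 0.713 CPM.

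WRKY factors were mostly level, with 2 of 18 higher and a median of 0.24. The 2 were WRKY18 (111 to 330 CPM) and WRKY28 (23.9 to 56.8 CPM). Among heat shock genes the upward calls fell on regulators, while 16 of 25 measured members lay within 2-fold, with a list median of 0.17. In the joint list of 25 measured genes 7 were higher, and all 7 were regulators: HSFA2 (0.712 to 6.08 CPM), HSFA6A, HSFA6B (15.4 to 67.6 CPM), HSFB2A, HSFB2B, HSFC1 and MBF1C, a coactivator. HSFA6A, with 0.0889 and 1.41 CPM, passed the filter through the ABA columns. The 2 lower were the chaperone genes ROF2 (17.2 to 8.49 CPM) and HSP23.6-MITO (1.67 to 0.836 CPM). HSP70 was level at 33.0 and 31.6 CPM, against 275 CPM untreated, and HSP90.1 had 73.9, 19.5 and 12.9 CPM.

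**Figure D5:**
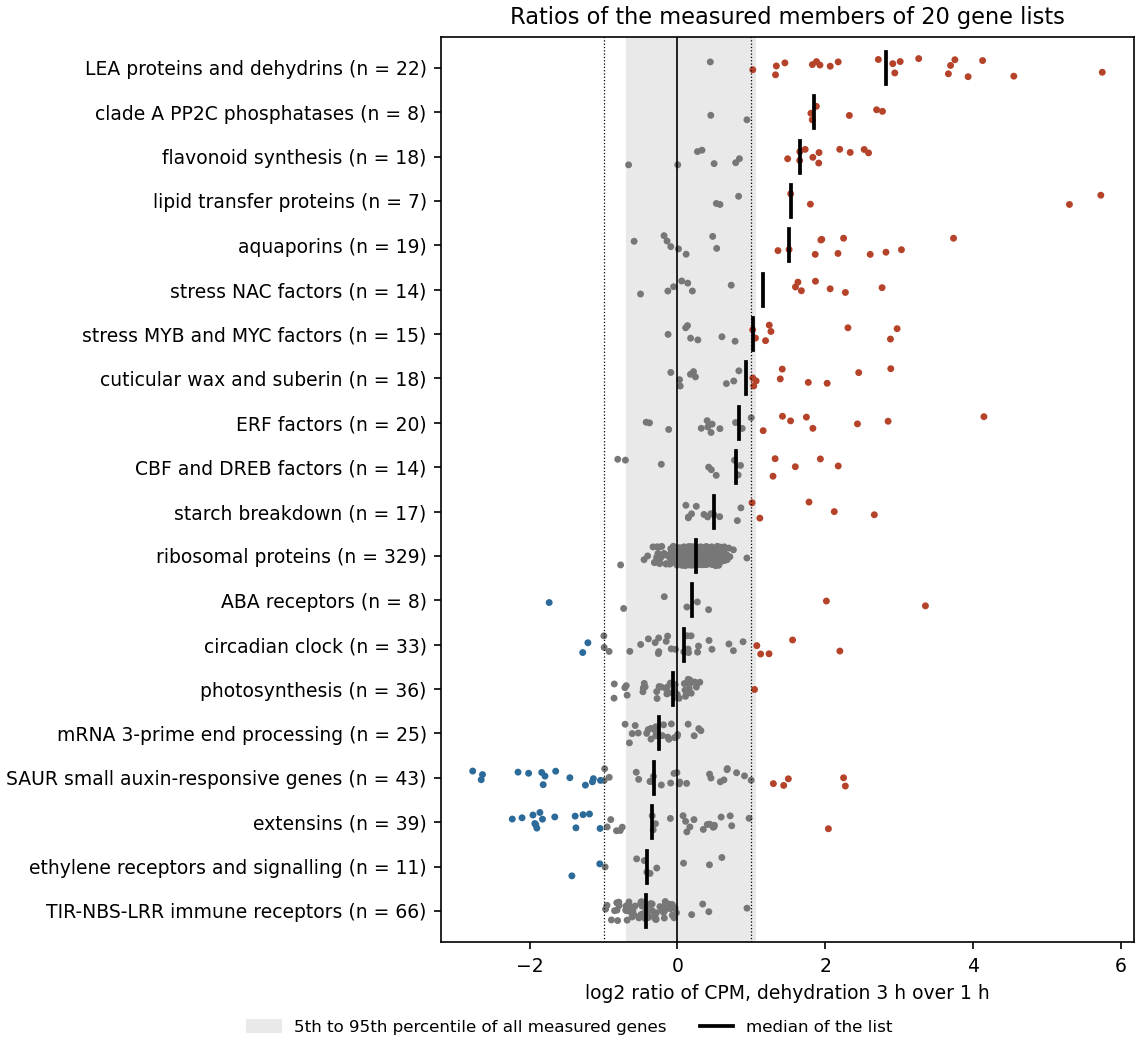
Log2 ratio of CPM at 3 h over 1 h for the measured members of 20 gene lists (each point 1 gene, red at least 2-fold higher, blue at least 2-fold lower), with each list's median as a bar and the 5th to 95th percentile of all measured genes (−0.68 to 1.04) shaded. Lists run from a median of 2.82 for LEA proteins to −0.43 for immune receptors; ribosomal protein genes sit slightly right of 0 and close together.

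In jasmonate synthesis 2 of 13 genes were higher, AOC2, an allene oxide cyclase (131 to 382 CPM), and JAR1, which forms active jasmonoyl-isoleucine (112 to 244 CPM). The lipoxygenase gene LOX3 had 10.9, 163 and 111 CPM. None of 12 JAZ repressors was 2-fold apart, which says little where 6.79% of all measured genes were. Of 11 jasmonate inactivation and target genes 3 were higher, such as VSP2, a storage protein (57.7 to 182 CPM), and 1 was lower, the oxidase CYP94C1 (22.8 to 10.5 CPM).

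Ethylene signalling genes leaned downward, with 2 of 11 lower, none higher and a median of −0.41. EBF1, an F-box protein that removes the ethylene factor EIN3, had 145 CPM untreated, 306 CPM at 1 h and 114 CPM at 3 h (log2 −1.43). The receptor gene ETR2 had 52.5, 18.8 and 9.06 CPM. CTR1, the kinase below the receptors, had 114 and 57.9 CPM, just under 2-fold. Under ABA, EBF1 had 182 and 193 CPM and ETR2 32.6 and 39.9 CPM. Of 8 ethylene synthesis genes 1 was higher, ACS2 (5.62 to 20.1 CPM).

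All 7 measured auxin transporters had ratios below 0, from AUX1 (86.7 to 45.1 CPM, log2 −0.94) to PIN4 (−0.11), and none was past 2-fold. Of 17 auxin response genes 1 was higher, GH3.5, which conjugates auxin (31.2 to 76.1 CPM). In the cytokinin list of 15 genes, 2 were lower, both oxidases that degrade cytokinin, CKX1 (3.58 to 0.892 CPM) and CKX5 (3.65 to 1.44 CPM). Of 15 gibberellin genes 3 were higher, among them the inactivating oxidase GA2OX1 (1.12 to 4.99 CPM), and 1 was lower, the DELLA gene RGL1 (16.7 to 7.97 CPM). GA2OX6, an oxidase of the same kind, had 6.49, 75.5 and 151 CPM and lay just under 2-fold. None of 12 salicylate and defence genes was 2-fold apart, near the 6.79% called over all measured genes.

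Small auxin-responsive SAUR genes held both directions. Of 43 measured, 14 were lower and 5 higher. SAUR20 had 4.35, 3.25 and 0.516 CPM (log2 −2.66, −2.99 to −2.34) and SAUR22 2.56, 1.19 and 0.174 CPM (−2.77, −3.36 to −2.23), which was the lowest ratio of all measured genes. AT4G22620, annotated to the same family, had 0.114, 1.56 and 7.54 CPM (2.27). SAUR20, SAUR22 and SAUR24 lie in a cluster of close copies, and most of the lower members had under 5 CPM. With a mean CPM of at least 5 asked for, 2 SAUR genes were lower.

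Several cell wall genes were among those lower at 3 h. Extensins are structural wall glycoproteins. Of 39 measured genes with an extensin annotation 14 were lower and 1 higher. The higher one, AT2G16630, is annotated as a pollen Ole e 1 allergen and extensin family protein. AT3G28550 had 153 CPM untreated, 133 CPM at 1 h and 30.9 CPM at 3 h (log2 −2.1), and HRGP1 75.7, 58.1 and 14.6 CPM (−1.99). EXT3 had 1295, 1585 and 654 CPM (−1.28). Extensins are repetitive and alike, and the 2 deposited tables part here: of the 23 genes whose FPKM ratio differed from the read ratio by over 0.25, 13 were extensins. On FPKM the log2 ratio was −1.79 for AT3G28550, −1.68 for HRGP1 and −0.97 for EXT3, which ends the call for EXT3. With ABA EXT3 had 1843 CPM at 1 h and 2553 CPM at 3 h.

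Other wall families held genes in both directions. BXL1, a beta-xylosidase, had 806 CPM untreated, 365 CPM at 1 h and 77.1 CPM at 3 h (log2 −2.24, −2.27 to −2.22). Of 40 fasciclin-like and other arabinogalactan proteins 4 were lower and 1 higher, with FLA9 at 275, 83.6 and 21.7 CPM (−1.94). Among 23 expansins, which loosen walls, EXPA8 was lower (4.99 to 0.976 CPM, after 69.3 CPM untreated) and 3 were higher, with EXPA10 at 35.9, 51.6 and 268 CPM (2.38). Of 81 pectin lyase and pectin methylesterase genes 13 were higher and 2 lower. AT1G48100, annotated as pectin lyase-like, had 4.59, 27.9 and 213 CPM (2.93), and with ABA 69.6 and 47.7 CPM.

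Flavonoid genes were higher together, with 11 of 18 past 2-fold, none lower and a median of 1.66. PAP1, a MYB factor of anthocyanin synthesis, had 0.341, 3.97 and 23.8 CPM (log2 2.59), and MYB12, a factor of flavonol synthesis, 0.921, 1.15 and 6.64 CPM (2.53). Enzymes followed with TT4, the chalcone synthase (48.6 to 153 CPM), F3H (27.8 to 105 CPM) and FLS1, the flavonol synthase (10.2 to 46.7 CPM). The general phenylpropanoid genes PAL1 (294 to 355 CPM) and PAL2 (243 to 244 CPM) lay within 2-fold. TT7 had the lowest ratio of the list, with 4.02 and 2.54 CPM. At a mean CPM of at least 5, 6 of these genes were still counted as higher. Glucosinolate genes did not go along: of 21, none was 2-fold apart, 4 had ratios above 0, and MYB28, their main aliphatic regulator, had 59.5 and 30.5 CPM.

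Photosynthesis genes differed little between the times. Of 36 measured genes 1 was higher, none lower, and the median was −0.07; the group held 75410 CPM untreated, 44743 CPM at 1 h and 41208 CPM at 3 h. The light-harvesting gene CAB2 had 3048 and 3761 CPM. Rubisco small subunits and activase lay lower, RCA with 5055, 3225 and 1970 CPM (log2 −0.71) and RBCS3B with 4475, 2941 and 1820 CPM (−0.69), the greatest losses in CPM of all genes though under 2-fold. NIA2, a nitrate reductase, had 2173 and 1362 CPM, and PEN3, a membrane transporter, 764, 2271 and 1234 CPM.

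Of 33 measured clock genes 26 lay within 2-fold, 5 were higher and 2 lower, with a median of 0.09. Calls were thus more frequent than over all measured genes, of which 5.42% were higher and 1.37% lower. The morning genes CCA1 (63.2, 89.1 and 57.0 CPM) and LHY (43.5, 26.2 and 13.1 CPM, 1.99-fold lower) had ratios below 0. The evening gene TOC1 had 31.4, 93.0 and 103 CPM, GI 52.7, 166 and 176 CPM, and ELF4, also of the evening, 1.53, 5.50 and 25.3 CPM (log2 2.2). GRP7, an RNA-binding protein under clock control, had 150, 446 and 1054 CPM (1.24). Lower past 2-fold were COL2 (14.4 to 5.92 CPM) and LNK2 (206 to 89.1 CPM). In ABA-treated seedlings, harvested at the same hours of treatment, CCA1 had 105 and 20.8 CPM and LHY 28.9 and 8.46 CPM.

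Of 25 measured genes of mRNA 3′ end processing none was called in either direction, 5 had ratios above 0, and the median was −0.25. Over all measured genes 6.79% were called in either direction, so no call among 25 genes says little about the list. The nuclear poly(A) polymerase PAPS4 had 60.7, 84.7 and 51.8 CPM (log2 −0.71), and FPA, an RNA-binding protein that acts on poly(A) site choice, 44.8, 106 and 82.7 CPM (−0.36). AT5G43620 and AT1G66500, both annotated as pre-mRNA cleavage complex II proteins, were far above untreated at 1 h and stayed there: AT5G43620 had 2.4, 40.6 and 47.5 CPM, and AT1G66500 4.58, 48.9 and 61.0 CPM. With ABA AT5G43620 had 4.41 and 3.28 CPM. Of 12 SR splicing factors 1 was lower, SR34B (13.1 to 5.83 CPM).

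In 2 large families most members lay on one side of 0. Of 329 ribosomal protein genes none was 2-fold apart, yet 287 had ratios above 0, against 9405 of 18876 genes in all, and their median was 0.26. Their sum was 72452 CPM untreated, 55169 CPM at 1 h and 65874 CPM at 3 h, and 36.2% of their windows held a telo-box. Between the ABA times the same genes had a median of −0.20. TIR-NBS-LRR immune receptor genes went the other way: of 66, none was 2-fold apart, 4 had ratios above 0 and the median was −0.43. Their sum was 1539 CPM untreated, 2804 CPM at 1 h and 1976 CPM at 3 h. With totals as the only scaling every ratio is 0.11 lower, which leaves the ribosomal median above 0.

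Several poorly described genes were, with LEA7 and LTP3, among the highest ratios of genes reaching 10 CPM. AT3G03341, annotated as unknown, had 0.0682 CPM untreated, 0.528 CPM at 1 h and 30.7 CPM at 3 h (log2 5.86, 5.58 to 6.16), and AT5G24080, a protein kinase, 0.0909, 0.664 and 36.1 CPM (5.76). AT3G02480, a LEA family protein, had 0.369, 0.361 and 16.6 CPM (5.52), and TSPO, a membrane protein, 0.171, 0.602 and 20.2 CPM (5.07). AT5G05220 and AT5G53710, both without a known function, had 47.6 and 45.1 CPM at 3 h after 1.09 and 1.19 CPM at 1 h. AT5G06520, annotated with a SWAP domain of splicing proteins, had 0.0171, 0.889 and 22.6 CPM (4.67), and with ABA 0.204 and 0.289 CPM. Among abundant genes SAHH2, which recycles S-adenosylhomocysteine, had 255, 445 and 1932 CPM (4.34-fold higher).

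Of 206 RING and U-box proteins 12 were higher and 2 lower, and of 21 PUB ligases 2 were higher. Of 50 PP2Cs outside clade A 2 were higher and 1 lower, and of 31 CIPK kinases and CBL proteins 2 were higher and 1 lower. Over all measured genes 5.42% were higher and 1.37% lower, so these counts say little about the families, and the genes below are single members. PUB19, a U-box ligase, had 0.290, 49.9 and 252 CPM (log2 2.34), and AIRP2, a RING ligase, 9.48, 7.87 and 59.4 CPM (2.92). AT3G05640, a PP2C outside clade A, had 4.79, 29.2 and 228 CPM (2.96). In the CIPK kinase family CIPK5 went from 7.13 to 29.1 CPM and CIPK20 from 30 to 10.5 CPM. None of 14 reactive oxygen enzymes was past 2-fold.

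The make-up of the tissue was read from marker genes. Of 10 measured root markers 1 was higher, WOX5, a gene of the root stem cell centre (0.279, 1.28 and 12.2 CPM, log2 3.25), and the other 9 lay within 2-fold, SCR, an endodermis gene, with 51.3 and 27.3 CPM. The list summed to 165 CPM untreated, 138 CPM at 1 h and 108 CPM at 3 h. Of 9 guard cell and stomatal lineage markers none was 2-fold apart, where 6.79% of all measured genes were. Their sums were 73.6, 80.5 and 68.4 CPM. Seed markers were all under 1 CPM on average, though CRA1, a seed storage protein, had 0.0366 CPM at 1 h and 1.59 CPM at 3 h. The part of these cell types in the results was not tested. The 10 reference genes had a median of 0.14, with ACT2 at 443 and 448 CPM and ACT7 at 464 and 657 CPM.

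Set beside the ABA series, which shares no column with the 2 dehydration times, the lists overlapped in part. Between 1 h and 3 h of ABA the same limit called 929 genes higher (4.92%) and 450 lower (2.38%), 7.31% in all. Higher in both were 335 genes, which are 32.8% of the dehydration list and 36.1% of the ABA list. Lower in both were 38 genes, 14.7% and 8.44% of the lists. Across 18874 genes the 2 log2 ratios had a Pearson r of 0.35 and a Spearman rho of 0.22, a description over genes of the same seedling stock and hours, not over replicates. Of 1021 genes higher in drying seedlings 30 were lower with ABA, where 2.38% of all genes were lower. Of 259 genes lower in drying seedlings 9 were higher with ABA, where 4.92% of all genes were higher. Both counts lie near these shares over all genes.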

How the data were processed

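Polyadenylated RNA of whole seedlings was made into strand-specific libraries and sequenced as single reads, per the labels' protocols. The authors deposited raw read counts per gene and FPKM values (reads per length and depth), per the file headers, each with 1 column per condition. No source states how the 3 libraries were combined. The submitters' processing notes name TopHat2 2.0.8, Cufflinks 2.1.1, Cuffdiff, DESeq2 and TAIR10 without their roles. The read counter and its use of strand: not given in the sources used here. Reads of overlapping genes and close copies may therefore be split or shared. Among the genes named, this touches CKX5, SAG21 and ERD9 and the close copies pointed out above.

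Counts were scaled by TMM (edgeR 4.0.16, R 4.3.3) to CPM. Genes with a mean of at least 1 CPM over 5 columns were kept, a count under 3 was set to 3, and genes at or under 3 reads at both times got no ratio. Called means at least 2-fold. Intervals are exact Clopper-Pearson intervals of the reads of both columns (SciPy 1.17.1, Python 3.11.15) and cover counting error only. With 1 combined column per condition no test was possible, and gene lists are described by counts and medians. FPKM served as a check: 99.1% of 18737 genes lay within 0.1 of the read log2 ratio. Scripts were tested on simulated data. RD29A is listed at 0 reads in the 3 h ABA column while its FPKM is high, and was treated as missing there.

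Genes and lists were chosen with earlier results of these data known, and lists of whole families after values of this comparison had been seen. Named genes were the 12 highest and 12 lowest ratios among genes reaching 10 CPM, the 8 largest differences in CPM each way, up to 4 members per list (3 extremes on the side with more members, 1 on the opposite side) and a set of known stress, clock and 3′ end genes. Further genes named within lists, such as those within 2-fold, were chosen after their values were seen. Start windows came from TAIR10.1 (RefSeq).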

Additional observations from a re-analysis of the deposited data

Results flagged for a closer look

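Some genes that reached 10 CPM in each time pair were past 2-fold in opposite directions in drying and in ABA-treated seedlings. Before this limit of 10 CPM, opposite calls lay near the shares called with ABA over all genes. With 1 column per condition the difference was not tested. Lower at 3 h of dehydration and higher at 3 h of ABA were XYL4, a xylosidase (log2 −1.57 against 1.83), AT2G30600 (−1.43 against 1.04), XTH24, a wall-modifying enzyme (−1.05 against 1.16), AT1G28660 (−1.02 against 1.18) and AT1G62510 (−1.0 against 2.04). Of these XTH24 had 278 and 135 CPM in drying seedlings and 266 and 593 CPM with ABA. Higher with dehydration and lower with ABA were TIP2;3, an aquaporin (1.87 against −1.37), AT1G20070 (1.59 against −1.62), cPT4 (1.33 against −1.16), UGT72E2, a glycosyltransferase (1.06 against −2.44), and GOLS1, a galactinol synthase (1.03 against −1.0). GOLS1 had 22.4 and 45.8 CPM in drying seedlings and 19.3 and 9.62 CPM with ABA.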

How the results depend on the processing

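No paired analysis was possible because the tables analysed here hold 1 combined column per condition, and for the same reason leaving out replicates could not be run. The count of higher genes was 1605 with no filter on low levels, against 1023, and between 750 and 1030 under the other settings. The count of lower genes was 420 with total-count scaling, 486 with no filter, 164 when a mean of 5 CPM was asked for and 126 on FPKM + 1, against 259; the cause was not tested. Among 52 named ratios none reversed in 260 comparisons with other settings, and 6 crossed 2-fold, among them LHY (−1.11 with total-count scaling) and EXT3 (−0.97 on FPKM). Sizes were less stable, with a largest shift of 1.63 on the log2 scale. These 52 genes were named by ratio, by difference in CPM or as known genes, and other named list members were not recomputed. No list median of at least 2-fold changed sign, and smaller list medians were not checked for this. With totals as the only scaling every ratio is 0.11 lower, so a median as near 0 as that of the clock genes (0.09) can change sign. Of 600 list medians 4 moved by over 1.5 times, among them LEA proteins (1.91 on FPKM + 1) and flavonoid genes (1.00 on FPKM + 1). Counts of called list members were less stable, with 1092 of 1200 within 1.5 times. Of genes with a mean of 1 to 5 CPM 8.07% were called higher and 2.81% lower, against 4.36% and 0.771% from 20 to 100 CPM and 5.78% and 1.42% from 100 CPM on.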
